A study of Mus musculus with 25 samples.

Results

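Caveolae are small flask-shaped pits of the plasma membrane. They are built from caveolins, which insert into the inner leaflet of the membrane, and from cavins, which bind from the cytosol as a coat. The family described here has 8 members, Cav1, Cav2, Cav3, Cavin1, Cavin2, Cavin3, Ehd2 and Pacsin2, of 55385 genes in the count tables. The members were named by symbol, and the family was chosen on the levels of Cav1 over the lines, which were already known. Cav1 therefore has values and no test, as do the comparisons between the 2 metastasis groups for every member. 7 of the 8 members passed the filter on low counts and Cav3 did not. Cavin3 passed through D4M alone and has values only. The 5 others, Cav2, Cavin1, Cavin2, Ehd2 and Pacsin2, were tested in comparisons of lines within a group.

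RNA was sequenced from 25 cultures of 5 murine melanoma cell lines, with 5 biological replicates per line. The study's HIM-melanoma (high and intermediate metastatic) consists of RET, WT31 and B16F10 luc2, and its LM-melanoma (low metastatic) of HCmel12 and D4M. WT31 came from Tyr::NrasQ61K/°; INK4a-/- mice, in which the tyrosinase promoter drives mutant Nras in melanocytes. B16F10 luc2 is a commercial luciferase-bearing B16F10 line, and RET came from mice in which the metallothionein-I promoter drives RET. D4M came from mice that carry Tyr::CreER and BrafCA, in which Cre under the tyrosinase promoter alters Braf, and HCmel12 from a primary melanoma of an HGF-CDK4(R24C) mouse. All cultures were untreated and at 50% confluency. Each genotype was represented by a single line, so that genotype and line cannot be told apart. D4M grew in Advanced DMEM/F-12 and HCmel12 in a supplemented RPMI, whereas the HIM-melanoma lines shared plain RPMI, so that line and medium cannot be told apart where D4M or HCmel12 is compared. The replicates are cultures of a line, and p-values measure the spread between these cultures only.

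Each library held 24199083 to 25843286 counts, and CPM are counts scaled to a library total of 1000000 after that total was adjusted by its TMM factor, a correction for differences in RNA composition. On this scale 3 counts, taken as the smallest detectable amount, corresponded to 0.111 to 0.138 CPM. This floor covers counting error only. The melanocyte markers Sox10, Mitf, Tyr, Tyrp1, Dct, Pmel and Mlana summed to between 12026 and 30206 CPM per library in the lines other than D4M. In D4M they summed to between 6.54 and 59.6 CPM, so that D4M is called here by its line name only. In D4M 4 of the 7 had a mean of at least 1 CPM, and without replicate 1 only Mitf did. D4M also had the highest sum of 8 fibroblast markers (707 to 1387 CPM, with Lum at 3 counts or fewer in every library), against 1.36 to 102 CPM in the other lines. The 5 with a mean of at least 1 CPM in D4M were Col1a1, Col1a2, Col3a1, Pdgfra and Pdgfrb, while Dcn averaged 0.335 CPM and Thy1 0.547 CPM. D4M replicate 1 held the highest melanocyte sum of its line (59.6 CPM, the others 6.54 to 12.1). HCmel12 replicate 4 had 30.1 CPM of Tyr, the others of its line 6.31 to 9.13, and the lowest mean correlation with its line (0.981, the others of all lines at least 0.984). Values of Cav1 and Pacsin2, the caveolin and cavin sums and the marker counts of these lines are also given without them where they changed.

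Caveolin 1 is the caveolin needed to form caveolae in most cells outside muscle, and caveolin 2 joins it in mixed oligomers. Caveolin 3 is the muscle form. Cavin 1 is the cavin without which caveolae are lost, cavin 2 shapes the membrane curvature, and cavin 3 binds a protein kinase C. EHD2 is an ATPase at the neck of the pit that holds it at the surface, and PACSIN2 is an F-BAR protein that bends membranes. In melanocytic cells, the level of caveolin 1 has been studied in connection with adhesion and migration.

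Cav1 lies on chr6:17306335-17341452 (GRCm38, plus strand), and Cav2 lies on the same strand at chr6:17281185-17289115, with its start 25.2 kb before that of Cav1. Cavin1, known earlier as Ptrf, lies at chr11:100956733-100970887 (minus strand) and Cavin2, earlier Sdpr, at chr1:51289126-51302960 (plus strand). The 250 bases before the RefSeq starts of these 4 genes (GRCm38.p6) are shown because Cav1 and Cav2 are neighbours with different orders of lines, and because Cavin1 and Cavin2 were ordered differently across the lines. Capitals mark matches to the 5 letter patterns searched on both strands, which were TGANTCA (AP-1), GGAATG (TEAD), CATGTG (M-box), CACGTG (E-box) and GGGCGG (GC box). The windows are chr6:17306085-17306334 for Cav1, chr6:17280935-17281184 for Cav2, chr11:100970618-100970867 for Cavin1 and chr1:51288876-51289125 for Cavin2, each written 5' to 3' on the strand of its gene.
Cav1: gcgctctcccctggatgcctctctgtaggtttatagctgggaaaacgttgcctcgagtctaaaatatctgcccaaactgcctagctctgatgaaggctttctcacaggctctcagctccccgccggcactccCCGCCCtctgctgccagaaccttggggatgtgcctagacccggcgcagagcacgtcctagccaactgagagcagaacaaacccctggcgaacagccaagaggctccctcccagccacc
Cav2: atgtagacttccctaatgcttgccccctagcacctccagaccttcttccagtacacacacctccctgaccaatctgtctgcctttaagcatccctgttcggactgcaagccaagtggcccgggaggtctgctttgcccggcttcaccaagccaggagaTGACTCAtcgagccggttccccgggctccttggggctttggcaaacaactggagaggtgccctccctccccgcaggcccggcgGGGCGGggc
Cavin1: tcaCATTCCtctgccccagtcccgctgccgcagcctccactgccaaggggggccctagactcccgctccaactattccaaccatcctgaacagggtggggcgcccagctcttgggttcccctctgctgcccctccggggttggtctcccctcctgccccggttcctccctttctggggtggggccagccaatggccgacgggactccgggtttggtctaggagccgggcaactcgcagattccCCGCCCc
Cavin2: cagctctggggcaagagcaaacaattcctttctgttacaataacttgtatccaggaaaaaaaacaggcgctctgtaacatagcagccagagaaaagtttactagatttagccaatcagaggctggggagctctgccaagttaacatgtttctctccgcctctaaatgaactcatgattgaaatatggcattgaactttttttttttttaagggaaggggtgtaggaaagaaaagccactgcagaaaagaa

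The window of Cav1 held a GC box pattern 118 bases before the start and none of the other patterns. That of Cav2 held TGACTCA from 92 bases before the start, and a GC box pattern from 9 bases before it. The Cavin1 window held CATTCC, the TEAD letters on the other strand, from 247 bases before the start and a GC box pattern from 7 bases before it, and the Cavin2 window held none of the 5. The RefSeq start of Cavin1 lies 270 bases after the GENCODE start, so that this window lies inside the gene as annotated by GENCODE. Of 32851 promoters of the same length, 6.75% held the AP-1 letters, 12.6% the TEAD letters, 12.3% the M-box, 6.02% the E-box and 32.7% the GC box letters, and a match is a description of letters only. CpG pairs numbered 10 in the Cav1 window, 10 in that of Cav2, 12 in that of Cavin1 and 2 in that of Cavin2. A promoter sequence was found for 7 of the 8 members, and Cavin3 is named only.

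Cav1 (ENSMUSG00000007655.16) spanned the widest range of the caveolins. In D4M its 5 libraries stood at 777, 1037, 580.3, 711.6 and 780.8 CPM, with a mean of 777 ± 166 (SD, n = 5). In HCmel12 they stood at 292.2, 276, 297.6, 479.4 and 280.1 CPM, with a mean of 325 ± 86.7 (SD, n = 5), or 286 ± 10.1 (SD, n = 4) without replicate 4. The highest HCmel12 library was below the lowest D4M library. RET had 3.20, 3.12, 4.53, 4.68 and 4.79 CPM (4.06 ± 0.83, SD, n = 5), B16F10 luc2 had 1.19, 1.74, 1.53, 1.24 and 1.96 CPM (1.53 ± 0.328, SD, n = 5), and WT31 had 0 counts in all 5 libraries. The lines thus followed the order D4M, HCmel12, RET, B16F10 luc2, WT31 with no overlap between neighbours. A count of 0 in a WT31 library allows up to 3 counts. For this bound and the later ones, the 3 counts were scaled by the library total without its TMM factor. Against that floor, Cav1 in WT31 was at least 6478-fold lower than in D4M and at least 2709-fold lower than in HCmel12, and it was at least 12.8-fold lower than in B16F10 luc2 and at least 33.9-fold lower than in RET. As a description, B16F10 luc2 differed from D4M by a log2 difference of -8.97 (SE 0.34) and RET by -7.57 (SE 0.24). Against HCmel12 these differences were -7.70 (SE 0.34) and -6.31 (SE 0.24). D4M exceeded HCmel12 by 1.27 (SE 0.12) on the log2 scale.

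The low Cav1 values of RET and B16F10 luc2 rested on 521 and 190 counts over 5 libraries. They came to 0.523% and 0.197% of the D4M mean. Cavin3, which D4M also carried at a high level, reached 0.00367% of its D4M mean in RET and 0% in B16F10 luc2. Relative to HCmel12, Cav1 came to 1.25% in RET and 0.471% in B16F10 luc2. Of 2224 genes with at least 100 CPM in HCmel12, Cdkn2a had the smallest such ratio and was at 0 in both lines. Of these genes, 17 had a smaller ratio than Cav1 in RET and 13 in B16F10 luc2. Of 2483 genes with at least 100 CPM in D4M, 90 had a smaller ratio to D4M than Cav1 in RET and 79 in B16F10 luc2. No 31-base sequence of the Cav1 transcripts occurs in transcripts of another gene.

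**Figure D1:**
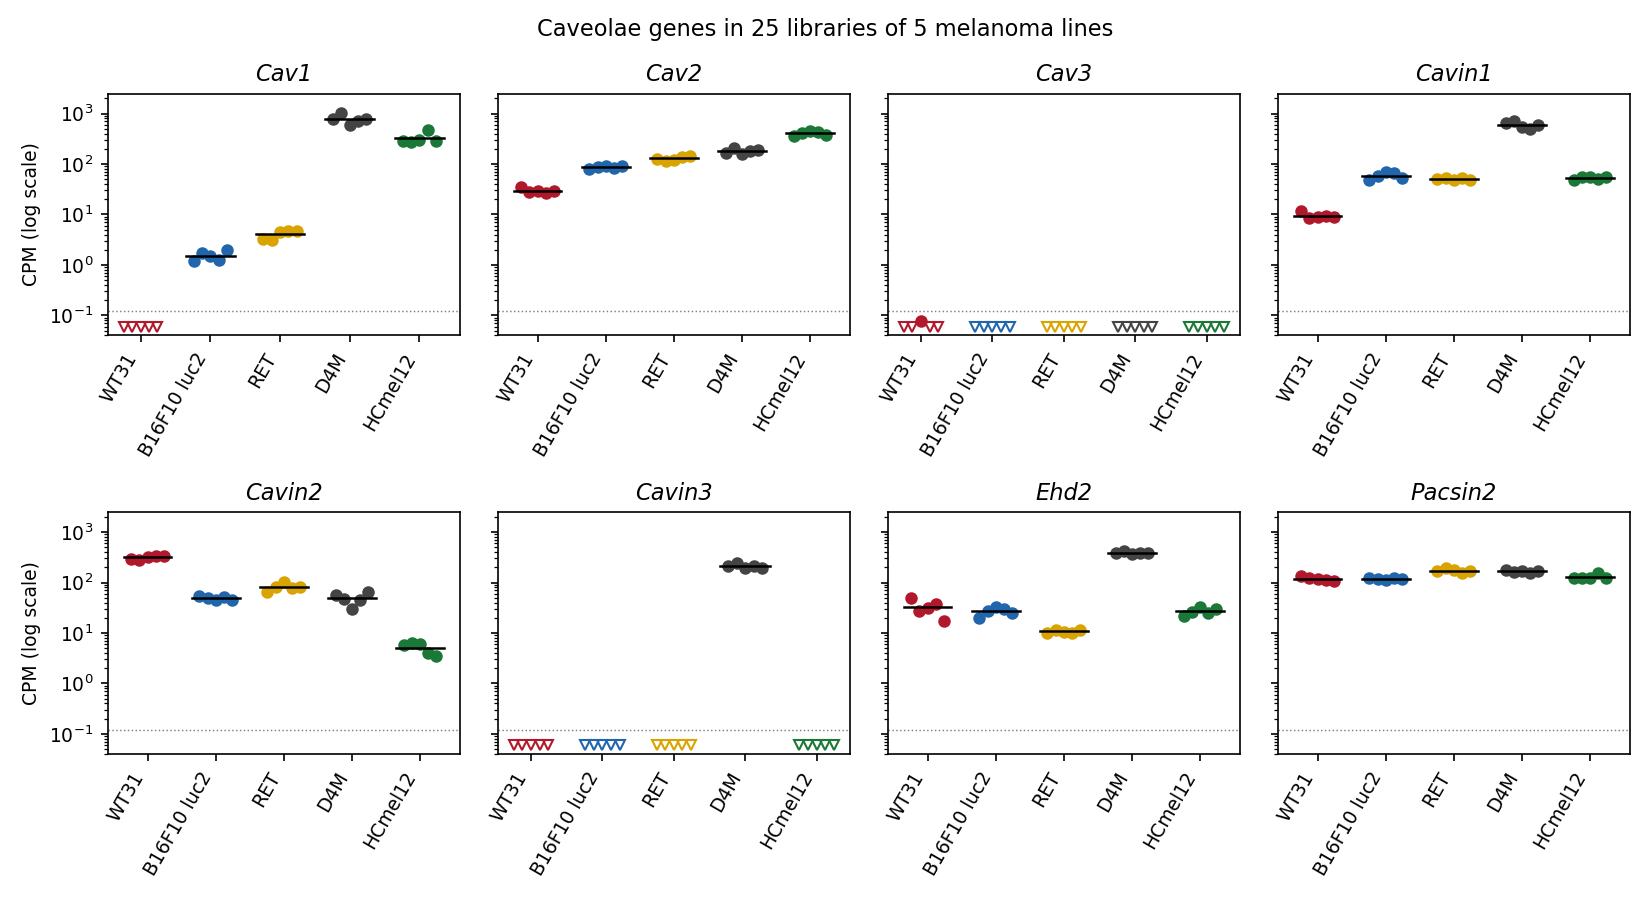
CPM of the 8 members (log scale) in each library of the 5 lines, one point per library, with black bars for line means. Open triangles are libraries under 0.06 CPM, drawn at 0.06, and the dotted line marks 0.12 CPM, the median value of 3 counts. Cav1 lay at 276 CPM or more in every D4M and HCmel12 library and at 4.79 CPM or less in all others, whereas Cavin3 was high in D4M alone and Cavin2 was highest in WT31.

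Cav2 (ENSMUSG00000000058.6) was present in all 5 lines. WT31, in which Cav1 was at 0, carried 35.5, 27.8, 29.0, 26.2 and 28.6 CPM of Cav2 (29.4 ± 3.57, SD, n = 5). B16F10 luc2 had 80.4, 88.8, 92.0, 85.1 and 90.1 CPM (87.3 ± 4.57, SD, n = 5), and RET had 126.2, 116.3, 121.5, 136.9 and 146.7 CPM (129.5 ± 12.3, SD, n = 5). D4M had 163.2, 208.3, 154.8, 183.9 and 193.8 CPM (181 ± 21.9, SD, n = 5), and HCmel12 had 353.1, 419.1, 442.8, 424.4 and 377.3 CPM (403 ± 36.9, SD, n = 5). The order was HCmel12, D4M, RET, B16F10 luc2, WT31, again with no overlap between neighbours, and it differed from that of Cav1 in the place of D4M and HCmel12. Cav2 was lower in D4M than in HCmel12 by a log2 difference of -1.16 (SE 0.08, adjusted p = 7.85e-13), where Cav1 was higher. Within HIM-melanoma, WT31 was lower than B16F10 luc2 by -1.58 (SE 0.09, adjusted p = 3.74e-14) and lower than RET by -2.14 (SE 0.09, adjusted p = 6.76e-17), and B16F10 luc2 was lower than RET by -0.57 (SE 0.08, adjusted p = 2.72e-06), all on the log2 scale. As a description, HIM-melanoma lay below LM-melanoma in all 6 comparisons of lines, with log2 differences between -3.78 (WT31 against HCmel12) and -0.48 (RET against D4M, or -0.275 when scaled by library totals alone). These 6 comparisons share libraries.

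Cav3 (ENSMUSG00000062694.7, chr6:112459505-112472872, plus strand), the caveolin of muscle, had 4 counts in WT31, at most 2 of them in a library, and 0 in the 20 libraries of the other lines. It was not tested.

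The genes around Cav1 differed in how far they shared its order of lines. Among protein-coding genes that start within 500 kb of the Cav1 start, Tes, Cav2, Met, Capza2 and St7 passed the filter on low counts and Tfec did not. WT31, with no count of Cav1, had 47.9 ± 13.8 CPM of Tes, 272 ± 90.6 of Met, 168 ± 4.32 of Capza2 and 32.0 ± 5.96 of St7 (SD, n = 5). Tes, an adhesion protein gene 241 kb before Cav1, was at 325 ± 20.6 CPM in D4M and 208 ± 33.9 in HCmel12, and at 59.9 ± 9.71 in B16F10 luc2 and 77.8 ± 3.24 in RET (SD, n = 5). Met, the receptor of hepatocyte growth factor, 157 kb after the Cav1 start, had a different order, with 1711 ± 99.4 CPM in B16F10 luc2, 1074 ± 143 in HCmel12, 121 ± 13.4 in D4M and 98.1 ± 15.4 in RET (SD, n = 5). St7 was lowest in D4M (15.7 ± 1.01 CPM) and highest in HCmel12 (63.7 ± 0.962, SD, n = 5). Capza2 was lower in D4M (221 ± 8.88 CPM) than in RET (287 ± 18.8) and B16F10 luc2 (254 ± 8.80, SD, n = 5).

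**Figure D2:**
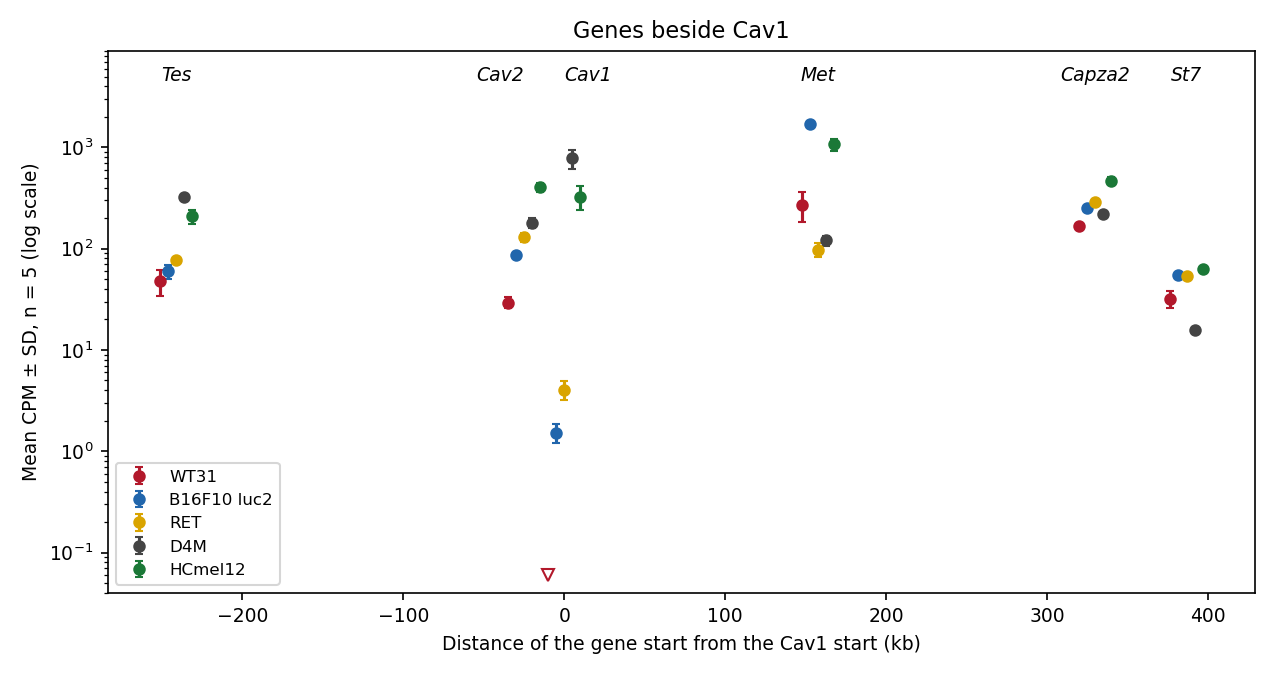
Mean CPM (log scale, bars show SD, n = 5) of the tested genes that start within 500 kb of the Cav1 start, plotted by distance in kb, with the lines set slightly apart. The open triangle is WT31 at 0 counts of Cav1. The lines differed at each gene, and the gap between 4.06 CPM in RET and 325 CPM in HCmel12 at Cav1 was wider than the gaps at its neighbours.

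Cavin1 (ENSMUSG00000004044.9) was highest in D4M, with 641.1, 721, 538.7, 505.8 and 584.2 CPM (598 ± 85.4, SD, n = 5). HCmel12 had 48.5, 54.8, 56.3, 50.4 and 55.0 CPM (53.0 ± 3.37, SD, n = 5), beside 325 CPM of Cav1. B16F10 luc2 had 48.8, 57.1, 68.0, 65.3 and 51.8 CPM (58.2 ± 8.32, SD, n = 5) and RET had 50.0, 52.1, 47.6, 53.3 and 47.2 CPM (50.1 ± 2.70, SD, n = 5). The libraries of HCmel12, B16F10 luc2 and RET overlapped. WT31 was lowest, with 11.8, 8.39, 8.85, 9.46 and 9.05 CPM (9.51 ± 1.34, SD, n = 5). D4M exceeded HCmel12 by 3.49 on the log2 scale (SE 0.09, adjusted p = 1.11e-21). WT31 was lower than B16F10 luc2 by -2.61 (SE 0.13, adjusted p = 9.21e-16) and lower than RET by -2.40 (SE 0.13, adjusted p = 5.62e-15). The difference between B16F10 luc2 and RET of 0.21 (SE 0.09, adjusted p = 0.0694) was not called. It passed the threshold without B16F10 luc2 replicate 1 (0.26, adjusted p = 0.022), without B16F10 luc2 replicate 5 (0.25, adjusted p = 0.043) and without D4M replicate 2 (0.20, adjusted p = 0.046). As a description, Cavin1 of WT31 differed from that of D4M by -5.97 on the log2 scale.

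Cavin2 (ENSMUSG00000045954.7) had the opposite extreme. It was highest in WT31, with 289.5, 281.1, 327.9, 340.6 and 338.1 CPM (315 ± 28.1, SD, n = 5), and RET followed with 66.1, 81.7, 104.7, 78.3 and 81.6 CPM (82.5 ± 14.0, SD, n = 5). B16F10 luc2 had 53.2, 48.3, 45.4, 50.9 and 44.7 CPM (48.5 ± 3.59, SD, n = 5) and D4M had 55.5, 47.2, 29.7, 45.5 and 64.3 CPM (48.4 ± 12.9, SD, n = 5). HCmel12 was lowest, with 5.66, 6.42, 5.999, 3.92 and 3.46 CPM (5.09 ± 1.32, SD, n = 5). Only B16F10 luc2 and D4M overlapped among neighbours in this order. Cavin2 was higher in WT31 than in B16F10 luc2 by 2.70 on the log2 scale (SE 0.13, adjusted p = 1.03e-15) and higher than in RET by 1.95 (SE 0.13, adjusted p = 3.51e-13). It was lower in B16F10 luc2 than in RET by -0.75 (SE 0.14, adjusted p = 4.90e-05), and D4M exceeded HCmel12 by 3.24 (SE 0.24, adjusted p = 2.86e-12). As a description, the 3 HIM-melanoma lines stood above HCmel12 by log2 differences of 3.28 to 5.98. Against D4M the differences were 2.74 for WT31, 0.80 for RET and 0.04 for B16F10 luc2 (SE 0.14), and the last changed sign without D4M replicate 3 (-0.14).

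Cavin3 (ENSMUSG00000037060.3, earlier Prkcdbp, chr7:105480083-105482300, minus strand) was high in a single line. D4M had 215, 242.4, 190.9, 208.2 and 195.8 CPM (210 ± 20.3, SD, n = 5), and without replicate 1 the mean was 209 ± 23.2 (SD, n = 4). There was 1 count in RET, in replicate 5, and 0 in the libraries of WT31, B16F10 luc2 and HCmel12. Cavin3 in D4M was at least 1711-fold higher than in HCmel12, as a description without a test, because Cavin3 passed the filter through its D4M libraries alone. It was at least 1754-fold, 1735-fold and 1740-fold above WT31, B16F10 luc2 and RET. Of the 31-base sequences of Cavin3, 21.1% occur also in Gm45667, an overlapping gene on the other strand. Gm45667 itself reached 0.177 ± 0.103 CPM (SD, n = 5) in D4M and was at 0 elsewhere. Whether the counting used strand is not given in the sources used here.

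Ehd2 (ENSMUSG00000074364.6, chr7:15946958-15967567, minus strand), the gene of the neck ATPase, followed D4M as well. D4M had 389.6, 428.8, 360.7, 377.7 and 386.3 CPM (389 ± 25.1, SD, n = 5), and HCmel12 had 21.8, 26.5, 32.5, 24.6 and 30.4 CPM (27.2 ± 4.33, SD, n = 5). WT31 had 49.8, 27.8, 30.8, 37.3 and 16.96 CPM (32.5 ± 12.1, SD, n = 5) and B16F10 luc2 had 19.4, 27.1, 33.0, 29.7 and 24.8 CPM (26.8 ± 5.15, SD, n = 5). RET was lowest, with 10.0, 11.4, 10.6, 10.0 and 11.5 CPM (10.7 ± 0.73, SD, n = 5). The libraries of HCmel12, WT31 and B16F10 luc2 overlapped, and those of D4M and RET stood apart on either side. D4M exceeded HCmel12 by 3.85 on the log2 scale (SE 0.17, adjusted p = 3.42e-17). RET was below both other HIM-melanoma lines, with WT31 higher by 1.51 (SE 0.22, adjusted p = 7.59e-07) and B16F10 luc2 higher by 1.30 (SE 0.22, adjusted p = 2.28e-05). The difference between WT31 and B16F10 luc2 of 0.22 (SE 0.18, adjusted p = 0.295) was not called. WT31 replicate 5 was the lowest of its line, and without it the difference was 0.43 with an adjusted p of 0.0089. WT31 replicate 1 was the highest, and without it the difference was 0.04 with an adjusted p of 0.85.

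Pacsin2 (ENSMUSG00000016664.16, chr15:83375607-83464606, minus strand) had the narrowest range of the 7 detected members. RET had 170.8, 193.3, 180.7, 152.7 and 165.6 CPM (173 ± 15.3, SD, n = 5), D4M had 176.1, 163.2, 169.9, 155.9 and 168.1 CPM (167 ± 7.58, SD, n = 5), and the 2 lines overlapped. Without replicate 1, D4M averaged 164 ± 6.26 CPM (SD, n = 4). HCmel12 had 122.4, 125.3, 125.3, 152.3 and 123.9 CPM (130 ± 12.6, SD, n = 5), or 124 ± 1.40 (SD, n = 4) without replicate 4. WT31 had 132.5, 124.6, 116.1, 114.2 and 107 CPM (119 ± 9.85, SD, n = 5), B16F10 luc2 had 125.7, 117.4, 110.4, 123.6 and 115.4 CPM (118 ± 6.18, SD, n = 5), and both overlapped with HCmel12. D4M exceeded HCmel12 by 0.36 on the log2 scale (SE 0.07, adjusted p = 2.77e-05), and by 0.19 (adjusted p = 0.021) when libraries were scaled by their totals alone. RET exceeded WT31 (log2 difference of WT31 from RET -0.54, SE 0.07, adjusted p = 7.27e-08) and B16F10 luc2 (-0.54, SE 0.07, adjusted p = 2.10e-07). WT31 and B16F10 luc2 differed by 0.00 (SE 0.07, adjusted p = 0.978), which was not called.

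**Figure D3:**
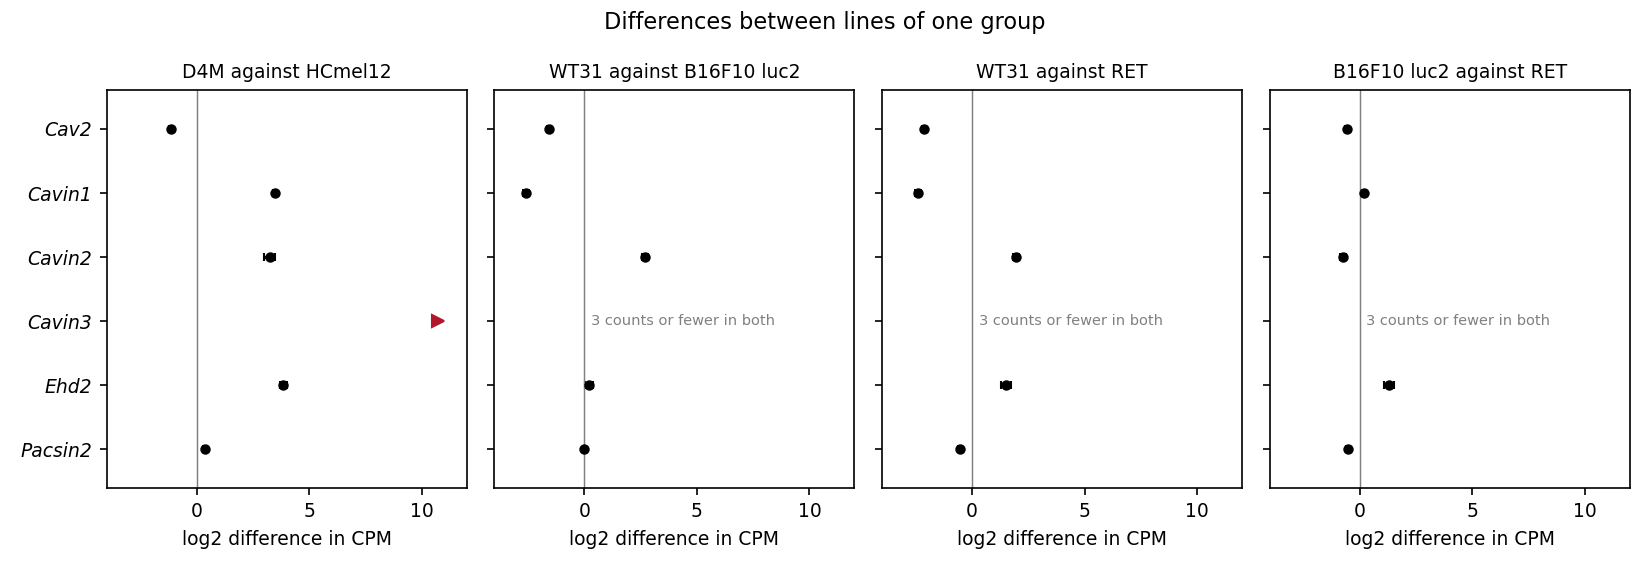
Log2 differences in CPM (first line minus second) for 6 members in the 4 comparisons within LM-melanoma or HIM-melanoma. Points are fitted differences with SE bars, the red triangle is a lower bound against 3 counts for Cavin3, which has no test, and Cav1 and Cav3 are left out. D4M exceeded HCmel12 for all members shown but Cav2 (-1.16), and WT31 exceeded both other HIM-melanoma lines for Cavin2 (2.70 and 1.95).

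Counted over the tested members, 5 of 5 were called between D4M and HCmel12, 4 higher in D4M and 1 lower. Over all 15247 tested genes, 72.5% were called there, 36.8% higher and 35.7% lower. Between WT31 and B16F10 luc2, 3 of 5 were called, 1 higher and 2 lower in WT31, beside 72.8% of all genes (36.4% higher, 36.4% lower). Between WT31 and RET 5 of 5 were called, 2 higher and 3 lower in WT31, beside 73.2% (36.8% higher, 36.4% lower). Between B16F10 luc2 and RET 4 of 5 were called, 1 higher and 3 lower in B16F10 luc2, beside 51.5% (25.2% higher, 26.2% lower). More than 50% of all genes were called in each of these 4 comparisons, and the counts of members are read against these shares.

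**Figure D4:**
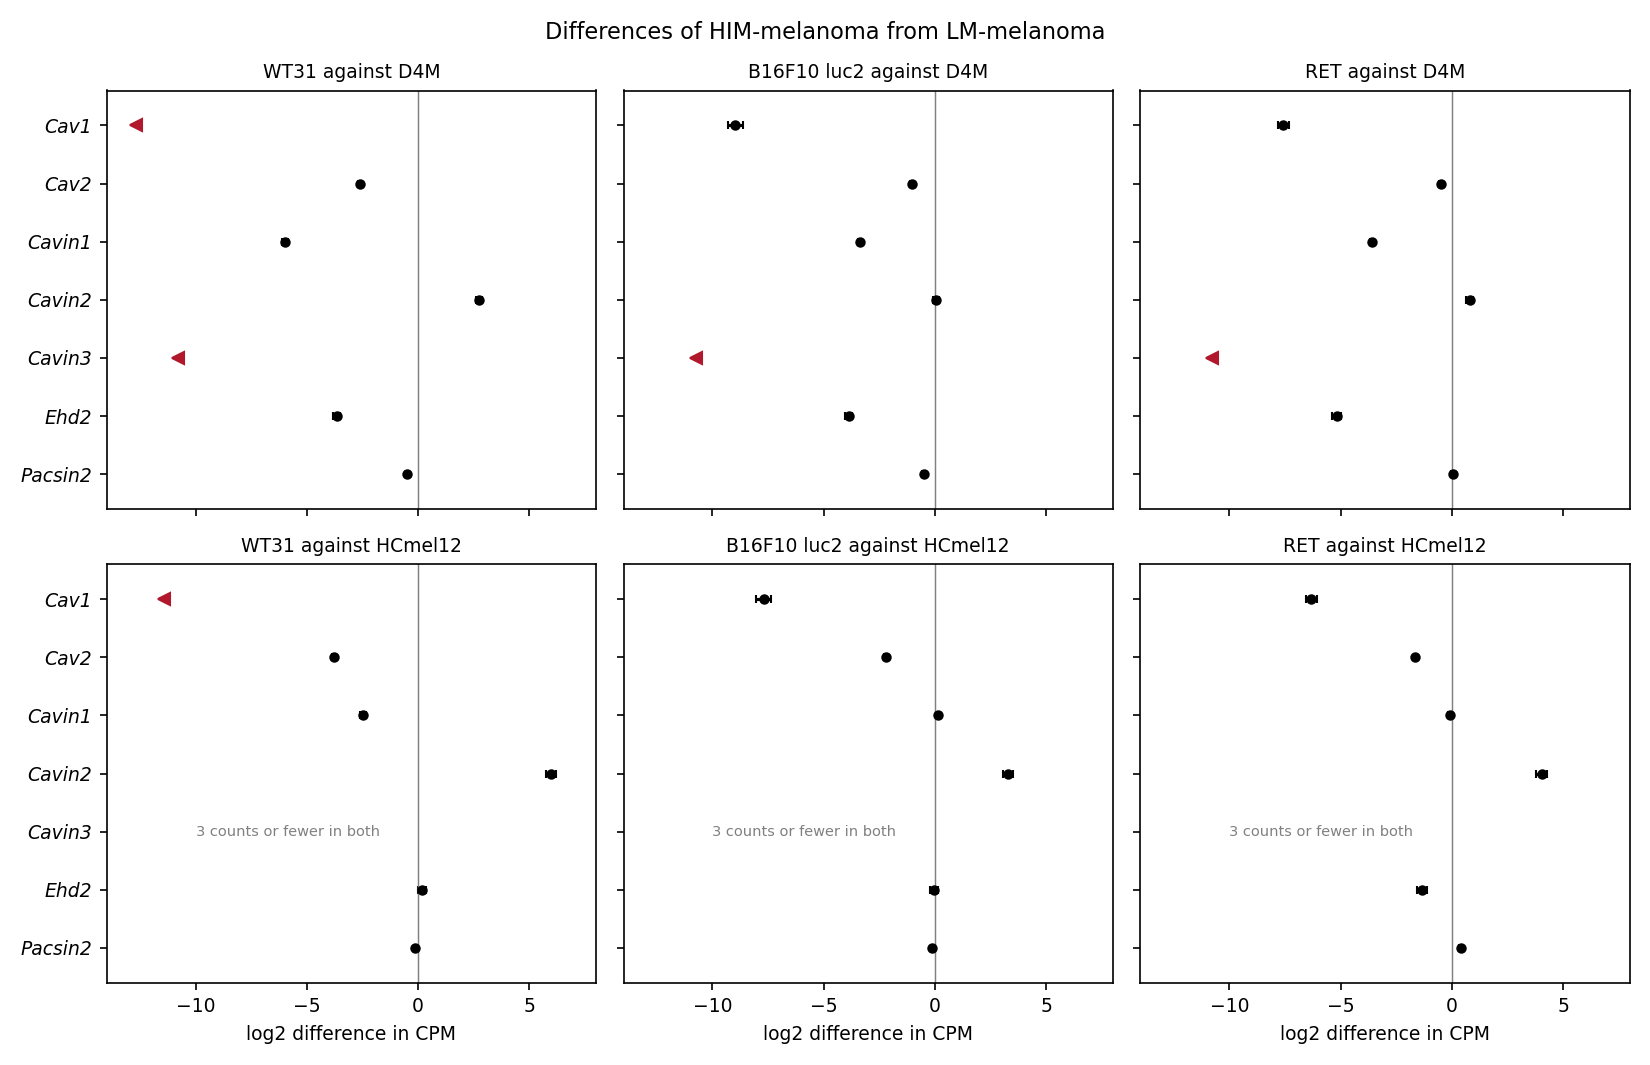
Log2 differences in CPM of each HIM-melanoma line from each LM-melanoma line for 7 members, given as a description without a test. Points are fitted differences with SE bars, red triangles are bounds against 3 counts, and Cav3 is left out. Cav1 and Cav2 lay below 0 in all 6 panels, whereas Cavin1 and Ehd2 stood far below 0 against D4M and, apart from WT31 for Cavin1 (-2.48) and RET for Ehd2 (-1.33), near 0 against HCmel12.

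Levels of different members were compared in TPM, which are scaled by transcript length to 1000000 per library. D4M replicate 1 had no TPM used here, so that D4M has 4 values. The caveolins summed to 634 ± 142 TPM in D4M (SD, n = 4) and 517 ± 45.5 in HCmel12 (SD, n = 5), against 99.8 ± 6.20 in RET, 62.6 ± 5.48 in B16F10 luc2 and 24.8 ± 2.63 in WT31 (SD, n = 5 each). The members Cavin1, Cavin2 and Cavin3 summed to 433 ± 55.2 TPM in D4M (SD, n = 4), 174 ± 14.0 in WT31, 62.5 ± 8.15 in RET, 49.1 ± 2.38 in B16F10 luc2 and 24.7 ± 2.30 in HCmel12 (SD, n = 5 each). Without HCmel12 replicate 4 its sums were 500.4 ± 31.8 TPM for caveolins and 25.4 ± 1.82 for cavins (SD, n = 4). HCmel12 thus had many caveolin and few cavin transcripts and WT31 the reverse. The ratio of cavin to caveolin TPM was 7.07 ± 1.04 in WT31 and 0.0481 ± 0.00613 in HCmel12 (SD, n = 5 each), and it lay at 0.789 ± 0.0776 in B16F10 luc2, 0.630 ± 0.0983 in RET (SD, n = 5 each) and 0.696 ± 0.0844 in D4M (SD, n = 4). The ratios of WT31 (5.58 to 8.29) and HCmel12 (0.0373 to 0.0522) did not overlap with those of any other line, and without replicate 4 that of HCmel12 was 0.0508 ± 0.00121 (SD, n = 4). Cavin4, which is no member, had 33.8 ± 15.95 TPM in D4M (SD, n = 4) and a mean of at most 0.0954 TPM in the other lines. With it the D4M ratio was 0.747 ± 0.0760 (SD, n = 4).

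The makeup of the sums also differed. Cav1 made up 79.4 ± 1.77% of caveolin TPM in D4M (SD, n = 4) and 42.1 ± 4.93% in HCmel12 (40.1 ± 2.70% without replicate 4, SD, n = 4), but 2.70 ± 0.512% in RET, 1.53 ± 0.255% in B16F10 luc2 and 0% in WT31 (SD, n = 5 each). Cavin2 made up 97.4 ± 0.457% of cavin TPM in WT31, 64.0 ± 4.29% in RET and 48.3 ± 4.17% in B16F10 luc2 (SD, n = 5 each), against 9.84 ± 2.33% in HCmel12 (SD, n = 5) and 4.83 ± 1.44% in D4M (SD, n = 4). The most abundant member by TPM was Cavin2 in WT31 (169 ± 14.1), Cav2 in B16F10 luc2 (61.7 ± 5.27), in RET (97.1 ± 6.18) and in HCmel12 (298 ± 26.6), each SD with n = 5, and Cav1 in D4M (505 ± 124, SD, n = 4). Cav2 overlapped with the next member, Pacsin2, in B16F10 luc2 and RET, and with Cav1 in HCmel12. The overlap in HCmel12 rested on replicate 4, without which Cav1 reached at most 211 TPM and Cav2 at least 264 TPM.

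**Figure D5:**
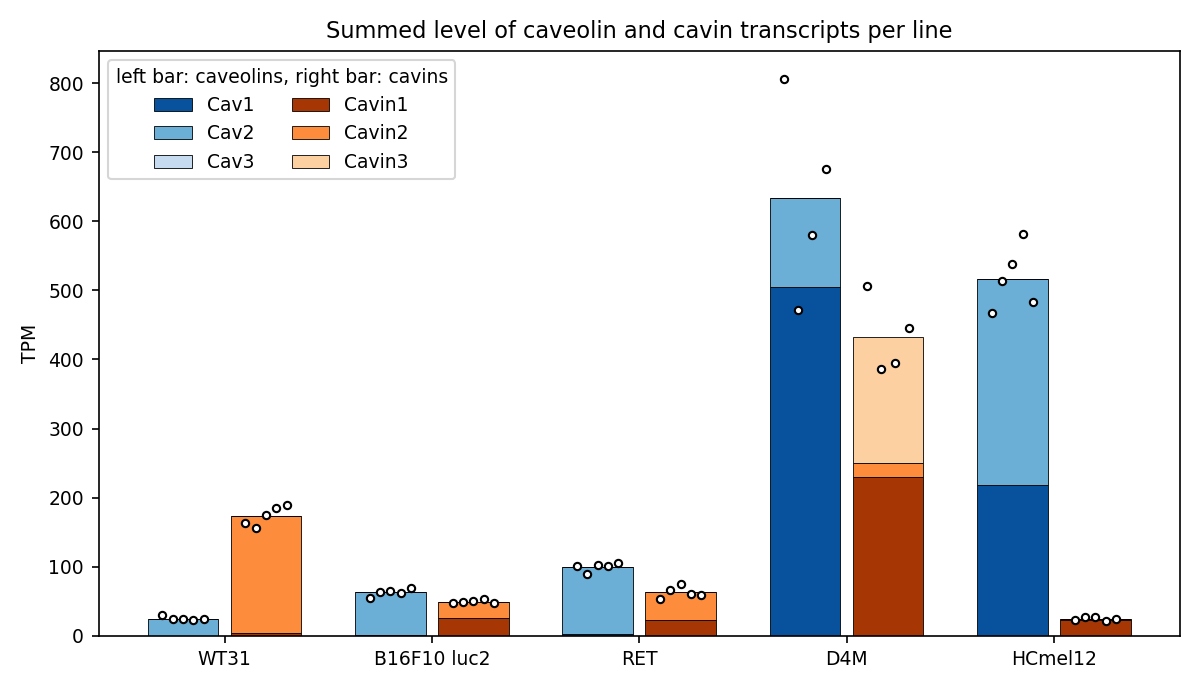
Mean TPM of caveolin (left bars) and cavin (right bars) transcripts per line, stacked by gene. White points are the sums in single libraries (n = 5 per line, 4 for D4M). WT31 had 174 TPM of cavins over 24.8 TPM of caveolins, and HCmel12 had 517 TPM of caveolins over 24.7 TPM of cavins.

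Apart from the members, 47 genes of caveola biology were listed, and 46 of them were tested (Cd36 was not). Of these, 43 were called between D4M and HCmel12 (33 higher, 10 lower), 39 between WT31 and B16F10 luc2 (28 higher, 11 lower), 36 between WT31 and RET (25 higher, 11 lower) and 27 between B16F10 luc2 and RET (10 higher, 17 lower). Over all tested genes these comparisons called 72.5% (36.8% higher, 35.7% lower), 72.8% (36.4% higher, 36.4% lower), 73.2% (36.8% higher, 36.4% lower) and 51.5% (25.2% higher, 26.2% lower). Of the list genes, Cavin4 and Egfr, the latter named after its values were seen, had 10 counts or more in D4M libraries alone, so that D4M carried them through the filter. Without both, 41 of 44 were called between D4M and HCmel12 (31 higher, 10 lower). In the counts of WT31 against B16F10 luc2 and RET, Egfr was called higher and Cavin4 was not called. Egfr had at most 3.58 counts in a WT31 library and at most 1.02 in one of B16F10 luc2 or RET. These calls of Egfr thus lay near the floor of 3 counts. Egfr was not the only such gene. Between B16F10 luc2 and RET, Ror1 was called lower at no more than 1 and 4 counts per library. Dnm3 was called higher there at no more than 6 and 3 counts. Pacsin1 was called lower in WT31, at no more than 1 count per library, against at most 16 in B16F10 luc2 and 23 in RET. The median log2 difference of the list was 0.64 for D4M against HCmel12 without both genes (0.67 with them), 0.39 for WT31 against B16F10 luc2, 0.36 for WT31 against RET and -0.12 for B16F10 luc2 against RET, while the median of all tested genes was 0.00 in each. Genes significant with the same sign in all 6 comparisons of HIM-melanoma with LM-melanoma were called commonly regulated. 1 list gene was commonly higher in HIM-melanoma and 7 were commonly lower (2.17% and 15.2% of the 46 tested), against 6.53% and 6.40% of all tested genes. The list was written with earlier results of these data known.

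Of the 10 coat and membrane-shaping genes of the list, Cavin4 passed the filter through D4M alone, and of the 9 others 6 were called higher and 3 lower in D4M than in HCmel12, beside 36.8% and 35.7% of all tested genes. Among the lower calls, Pacsin1 had at most 4 counts in a D4M library and 5 in an HCmel12 library, near the floor of 3 counts. Cavin4, the cavin of muscle, was at 50.2 ± 20.6 CPM in D4M (SD, n = 5) and at 4 counts or fewer in every library of the other lines. Ehd3, a paralog of Ehd2 on recycling endosomes, ran the other way, with 6 counts or fewer in each D4M library, 10.1 ± 2.58 CPM in HCmel12, 42.9 ± 10.97 in RET, 39.2 ± 3.08 in B16F10 luc2 and 8.59 ± 1.68 in WT31 (SD, n = 5). Ehd1, another endosomal paralog, was commonly lower in HIM-melanoma, from 75.9 ± 1.83 CPM in B16F10 luc2 to 219 ± 20.8 in D4M. Ehd4 was at 142 ± 9.48 CPM in D4M and 133 ± 14.4 in WT31, and lowest in B16F10 luc2 (36.7 ± 2.80).

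The dynamins, GTPases that sever membrane necks, did not move together. Dnm1 was commonly lower in HIM-melanoma, with 5.23 ± 0.758 CPM in WT31, 6.70 ± 1.04 in RET and 12 ± 2.41 in B16F10 luc2 against 75.0 ± 9.45 in D4M and 39.9 ± 6.34 in HCmel12 (SD, n = 5). The ubiquitous Dnm2 stayed between 132 ± 5.98 CPM (B16F10 luc2) and 181 ± 10.4 (WT31), and Dnm3 did not exceed a mean of 1.13 CPM in any line. Pacsin3 lay between 16.4 ± 1.45 and 21.3 ± 2.58 CPM, and Pacsin1 at a mean of 0.607 CPM or less. Ror1, a receptor that binds cavin 1 and caveolin 1, was at 19.9 ± 2.04 CPM in WT31, where both were at their lowest, and at a mean of 1.85 CPM or less in the other lines.

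In the other list groups, Flot1 and Erlin1, scaffolds of membrane rafts, were commonly lower in HIM-melanoma. Flot1 was at 44.8 ± 10.4 CPM in D4M and 30.3 ± 3.32 in HCmel12 against 17.7 ± 2.70 in WT31, 6.86 ± 0.903 in RET and 3.54 ± 0.582 in B16F10 luc2 (SD, n = 5). Erlin1 was at 68.3 ± 4.74 CPM in D4M, 39.3 ± 3.44 in HCmel12 and 28.3 ± 2.94 to 32.5 ± 2.05 in HIM-melanoma. The kinase gene Prkca and the GTPase gene Rhoa were commonly lower by a mean of the 6 log2 differences of -1.03 and -0.49, where Rhoa shares 10.8% of its 31-base sequences with other genes. Tgfbr1, a receptor of transforming growth factor beta, was commonly higher, at 46.3 ± 5.55 to 69.0 ± 3.86 CPM in HIM-melanoma, 37.0 ± 5.20 in D4M and 35.1 ± 3.12 in HCmel12. None of the 7 transcription genes was commonly regulated. Among them Wwtr1, the TEAD coactivator TAZ, chosen after its values were seen, was at 479 ± 35.2 CPM in D4M, 268 ± 4.85 in WT31, 89.1 ± 11.3 in HCmel12, 54.8 ± 2.15 in RET and 45.7 ± 1.26 in B16F10 luc2 (SD, n = 5).

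The genes most like each member were sought over the 5 line means of log2 CPM, centred per gene, by the root mean square difference. For Cav1 the nearest of 15246 other genes was Tmsb4x (thymosin beta 4, which binds actin monomers) at 0.57 log2 units. Its mean was 1082 CPM in D4M, 337 in HCmel12, 7.66 in RET, 1.12 in B16F10 luc2 and 0.0533 in WT31. The next were Ggta1 (1.90), Stc1 (2.07), Stambpl1 (2.23) and Armcx1 (2.24), and the nearest other member, Cavin1, was at rank 368 (4.09). Cav2 was nearest to Cbfa2t3 (0.16), Rem2 (0.26) and Smpdl3b (0.33).

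Cavin1 was nearest to Map1b (0.29), Ptk2b (0.32) and Gm49774 (0.35), with Ehd2 at rank 568. Cavin2 was nearest to Gm48035 (0.45), Scube3 (0.45) and Tspan6 (0.61), and no other member was nearer than rank 5864. Cavin3 was nearest to Ereg (0.06), Smoc2 (0.26) and Mmp3 (0.32), which like Cavin3 were near 0 outside D4M. Ehd2 was nearest to Socs1 (0.07), Osbp2 (0.17) and Arhgef5 (0.21), and the genes near Pacsin2 included Zfp511 (0.05) and Rsbn1l (0.05). For members or matched genes near 0 in a line, the distance depends on the small count added before the logarithm. Among the matched genes, Rem2 averaged 0.0525 CPM in WT31, Arhgef5 0.0306 in RET and Gm48035 0.0177 in HCmel12, each under the level of 3 counts. 5 points per gene allow many such matches, and they are descriptions of these lines.

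D4M differed from the other lines in the melanocyte and fibroblast lists as well as in Cavin1, Cavin3, Ehd2 and Cavin4. Of the 8 endothelial markers, 1 (Plvap) reached a mean of 1 CPM in D4M, while Kdr averaged 0.0885 CPM in D4M and 30.96 CPM in HCmel12. The endothelial list summed to 125 to 176 CPM in D4M, of which Plvap, a protein of endothelial caveolae, made up a mean of 140 CPM, with Tie1 and Emcn at 3 counts or fewer in every library. The other lines summed to 3.92 to 50.9 CPM. Adipocyte markers, from a cell type rich in caveolae, summed to at most 0.406 CPM in any library. Muscle markers summed to 0.506 to 0.724 CPM in D4M, where Cavin4 was high, and to at most 32.4 CPM elsewhere, with Myog and Myod1 at 3 counts or fewer in every library of every line. Leukocyte markers summed to at most 16.6 CPM, with Ptprc and Adgre1 at 3 counts or fewer in every library. The part of the fibroblast genes in the member values was not tested. Without D4M replicate 1 and HCmel12 replicate 4, Cav1 averaged 777 ± 192 CPM in D4M and 286 ± 10.1 in HCmel12 (SD, n = 4 each).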

How the data were processed

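RNA-seq of 25 libraries was used. According to the study's methods, the authors trimmed reads with trim_galore (0.6.4) and assigned them to GRCm38.p6 with kallisto. They deposited estimated counts per gene, not normalized (24.5% to 26.6% of values were not whole), and TPM, scaled by transcript length and used for 24 libraries. Depth was 24199083 to 25843286 counts. The members, gene lists and tests were chosen with earlier results of these data known.

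Counts were filtered (edgeR 4.0.16, filterByExpr, 15247 of 55385 genes kept), scaled with TMM factors and fitted with voom and limma 3.58.1 (R 4.3.3), with 1 mean per line. P-values were adjusted over all tested genes by Benjamini-Hochberg, at 0.05. CPM are scaled by TMM factors. Folds against lines with at most 3 counts per library are lower bounds, with the 3 counts scaled by library totals without TMM factors. Coordinates and transcripts are from GENCODE M21. All members, all coat genes and the 2 commonly regulated genes of each other list group with the largest mean difference are named. Alternatives (the closing section gives their effect) were library-size and DESeq2 (1.42.0) scaling, edgeR's quasi-likelihood test and DESeq2's Wald test on rounded counts, other filters, only the compared lines, a replicate block, log2 TPM, stricter thresholds and leaving out each library. An allele of D4M and 1 gene near Pacsin2 are not reported here.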

Additional observations from a re-analysis of the deposited data

Results flagged for a closer look

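Of 30 sets of 5 libraries (a member in a line where a library had more than 3 counts), 2 held a library far from the others, and about 1 in 20 sets is marked in this way by chance. Cav1 in HCmel12 replicate 4 was at 479 CPM, where the nearest other library was at 298 CPM. Pacsin2 in the same library was at 152 CPM, where the nearest other was at 125 CPM. This library also held the highest Tyr level of its line (30.1 CPM). The part of this in both values was not tested.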

How the results depend on the processing

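Of 342 counts recomputed under alternatives, 332 stayed within 1.5 times the reported count (member counts of D4M against HCmel12 are given separately). When calls also needed an absolute log2 difference of 1 or more, the list genes called were 20 (D4M against HCmel12), 21 (WT31 against B16F10 luc2), 19 (WT31 against RET) and 3 (B16F10 luc2 against RET), the members called between B16F10 luc2 and RET were 1, and the commonly regulated list genes were 0 higher and 1 lower. With log2(TPM + 1), 2 list genes were commonly higher and 4 lower, and with log2(TPM + 0.1) 2 were higher. The cause was not tested. Of 2010 single-gene values, 1951 kept their direction and their side of the threshold or moved by less than the spread between libraries, 39 moved by more than that spread, 4 newly passed the threshold and 16 changed sign. Cavin2 in B16F10 luc2 against D4M was -0.039 by DESeq2's Wald test, and with log2 TPM at either pseudocount Pacsin2 in WT31 against HCmel12 was 0.058 and Cavin1 in RET against HCmel12 was 0.002. When single libraries were left out, Pacsin2 in WT31 against B16F10 luc2 ranged from -0.037 to 0.040, Cavin2 in B16F10 luc2 against D4M from -0.136 to 0.146 and Ehd2 in B16F10 luc2 against HCmel12 from -0.114 to 0.078. All 5 tested members were called between D4M and HCmel12 under each alternative computed for single genes. Apart from the limit on fold, no called member of the 5 lost its call. Scaling by library size alone shifted the median log2 difference of all genes by -0.18 for D4M against HCmel12, and by 0.15 to 0.23 for HIM-melanoma against D4M. Without both D4M replicate 1 and HCmel12 replicate 4, an alternative chosen after the data were seen, no count moved by over 1.5 times.

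Replicate numbers did not pair the libraries: libraries of the same number in different lines had deviations correlated at -0.0909 to 0.104 (50 pairs), and other numbers at -0.121 to 0.13 (200 pairs). With the number as a replicate block, 5, 3, 5 and 4 of the 5 tested members were called in the 4 comparisons, as without it, and 43, 40, 36 and 28 list genes. Commonly regulated list genes were 1 higher and 8 lower with the replicate block.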
